A study of Mus musculus with 13 samples.

Results

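This comparison set immature γδ thymocytes against αβ-lineage thymocytes when both came from mice labelled as conditional knockouts (cKO) of Sox4. It covers 6 of the 13 arrays of the series. There are 4 V2 cKO arrays, from cells sorted by FACS as TCRδ positive, Vγ2 positive, high for HSA and without CD4 and CD8, and 2 DP cKO arrays, from cells sorted as positive for both CD4 and CD8. All came from the thymus of mice 2 weeks old, with sex labelled as mixed. The V2 titles are written in 2 ways. The arrays called V2imm here (cKO replicates 4 and 5) carry only the word KO and were read as the Sox4 knockout of the series, and the arrays called immV2 (cKO replicates 3 and 4) name Sox4. The question was which lineage differences remain without Sox4, so the matching wild type comparison (3 V2 WT and 2 DP WT arrays) is given beside it. The labels and notes used here do not name the driver of the deletion. Nothing in the labels ties replicates to different mice, and the p-values therefore rest on the spread of these samples alone, which could be technical.

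DP cKO replicate 5 was left out by rule because it carries γδ markers. V2 WT replicate 5 (immV2) was left out of the wild type side because it carries DP markers. Since the first of these was chosen on genes of this very contrast, every count and p-value for V2 cKO against DP cKO is conditional on that choice, and the result for the arrays as labelled is given with it. The genes that mark the populations, Sox13, Etv5, Cd4, Cd8a, Rag1 and Rag2, are described without a test.

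Sox4 is an HMG box transcription factor of the SoxC group, expressed in early T cell precursors. In the thymus the γδ and αβ lineages part before the DP stage. The αβ branch passes through pre-TCR signalling, switches on both coreceptors and the RAG recombinase to rearrange the TCRα locus, and lives briefly unless selected. Vγ2 γδ thymocytes include precursors of cells that make IL-17, a programme in which Sox4, Sox13, Maf, Rora and the kinase Blk take part. HSA, the product of Cd24a, marks immature cells of both branches.

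Values are log2 RMA intensities. In every sentence that lists them, V2 cKO values run in the order V2imm replicates 4 and 5, then immV2 replicates 3 and 4, and DP cKO values in the order replicates 3 and 4. The lower quartile of an array lay between 5.72 and 6.09, and a fold whose lower side lies there has no exact size. A gene is said to be called where the limma adjusted p is under 0.05. Array medians, on the linear scale, ran from 122.2 to 137.2 over the 13 arrays. V2 cKO replicate 4 (V2imm) had the highest median and lower quartile and the lowest upper quartile, 332.7. Its log2 values correlated at 0.951 to 0.960 with the other V2 cKO arrays, which correlated at 0.983 to 0.994 with each other. The count of calls without this array is given below. The number of arrays, not a read depth, limits the precision.

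Sox4 itself, read by 1 probe set, was 8.07, 9.60, 8.11 and 8.23 in V2 cKO and 8.74 and 8.68 in DP cKO, a difference of -0.20 (SE 0.42, adjusted p = 0.929). V2imm replicate 5 stood above both DP cKO arrays and the other V2 cKO arrays below them. In WT it was 8.71, 8.64 and 9.68 in V2 (V2imm replicates 4 and 5, immV2 replicate 3) and 9.37 and 8.55 in DP. The cKO and WT arrays overlapped on the V2 side and on the DP side, and V2imm cKO replicate 5 lay near the highest WT array. Where the probe set lies relative to the deleted segment is not stated, so its level does not check the genotype, and the loss of Sox4 is known here from the labels alone.

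γδ and DP cells kept a broad difference in the arrays labelled Sox4 cKO. Of 19752 genes tested, 1076 were called (5.45%), 692 higher in V2 cKO (3.5%) and 384 lower (1.94%), and 625 of them differed by at least 1 log2 unit, 155 by at least 2 and 51 by at least 3. The 4 V2 cKO arrays did not overlap the 2 DP cKO arrays in 4168 genes (21.1% of all tested, 9.8% with V2 cKO higher and 11.3% with it lower) and in 1021 of the called genes. The median difference of all genes was -0.01. Every count of a gene list below is to be set beside the shares of all genes, 5.45% called, 3.5% higher and 1.94% lower. With all 13 arrays in their labelled groups 7 genes were called (0.0354%), 3 higher (0.0152%) and 4 lower (0.0203%). Without only DP cKO replicate 5 the count was 272, and with it kept and V2 WT replicate 5 (immV2) left out it was 33. The fit of the 6 cKO arrays by themselves called 579. Each DP cKO array carries much of the count, which was 480 without replicate 3 and 544 without replicate 4, and 1632 without V2 cKO replicate 4 (V2imm). Among 134 called genes taken up by the naming rule or the text, 0 turned direction without any 1 of the 11 arrays. Some of them lost their call when 1 or the other DP cKO array was left out. Many were picked for a large fold or a small p, and they include the 6 markers. They therefore do not stand for all 1076 calls.

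The markers separated the 2 groups in all 6 arrays. Sox13, an HMG box factor of the γδ lineage, was 9.38, 9.99, 10.37 and 10.96 in V2 cKO and 8.18 and 7.87 in DP cKO. Etv5, an ETS factor of γδ thymocytes, was 11.17, 11.85, 10.73 and 11.07 against 6.41 and 6.57. The gap was wider for Etv5 than for Sox13, and no V2 cKO array overlapped a DP cKO array in either gene. The left-out array labelled DP cKO replicate 5 had Sox13 at 11.49 and Etv5 at 12.01, above every V2 cKO array.

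Both coreceptors and both RAG subunits lay at the DP end. Cd4 was 6.84, 6.72, 7.36 and 7.31 in V2 cKO and 12.62 and 12.46 in DP cKO. Cd8a was 8.23, 7.81, 7.49 and 7.74 against 12.84 and 12.63. Neither coreceptor's groups came within 4 log2 units of each other, in cells sorted on these very proteins. Rag1, the catalytic subunit of the recombinase, was 6.93, 6.97, 7.04 and 6.67 against 12.997 and 13.013. Rag2, its partner, was 5.79, 5.50, 5.03 and 4.64 against 11.31 and 10.75, with V2 cKO values at or under the lower quartile of the arrays. The left-out array labelled DP cKO replicate 5 had Cd4 at 7.47, Cd8a at 7.65, Rag1 at 6.87 and Rag2 at 5.34, within or near the V2 cKO range. Since the arrays were chosen with these markers, their separation is no check of the labels.

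**Figure D1:**
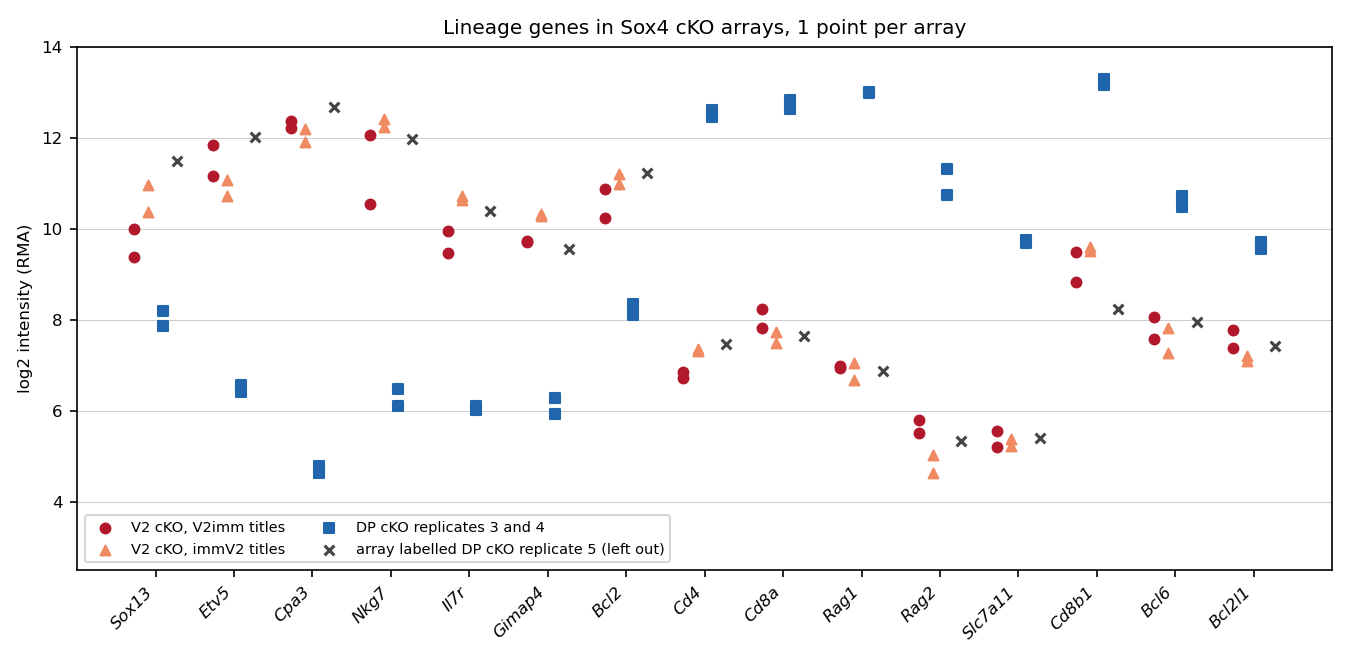
Log2 RMA intensity (y axis) of 15 genes (x axis) in the Sox4 cKO arrays, 1 point per array: V2imm and immV2 arrays of V2 cKO, the 2 DP cKO arrays compared, and the left-out array labelled DP cKO replicate 5. The left-out array lies on the V2 side in each of the 15 genes, for example at 11.49 for Sox13 and 6.87 for Rag1.

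Genes typical of DP thymocytes were mostly lower in V2 cKO. Of 27 measured genes of this list, 18 were called lower in V2 cKO, 1 was called higher and 8 were not called, with a median difference of -1.92 against -0.01 over all genes. The 18 include the 4 markers Rag1, Rag2, Cd4 and Cd8a, so 14 are not markers, and the median of the other 23 genes was -1.68. The sialyltransferase gene St6gal1 was the 1 gene of the list called in the other direction, higher by 3.28 in V2 cKO. All 19 calls were also called in the same direction in WT. Leaving out 1 array at a time left 18 to 21 called genes in this list, while the arrays as labelled left 0.

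Cd8b1, the β chain of CD8, was 9.49, 8.84, 9.60 and 9.50 in V2 cKO and 13.30 and 13.17 in DP cKO, a difference of -3.88 (SE 0.21, adjusted p = 1.64e-07). Bcl6, a transcriptional repressor of DP cells, was 7.57, 8.05, 7.83 and 7.26 against 10.72 and 10.48 (difference -2.92, SE 0.23, adjusted p = 3.9e-06). Ly6d, a surface protein, was 7.75, 7.54, 8.40 and 6.92 against 11.35 and 11.52 (difference -3.79, SE 0.30). None of the V2 cKO arrays reached a DP cKO array in these 3 genes. Satb1, a chromatin organiser needed for DP identity, stayed high on both sides, at 11.55, 12.10, 10.93 and 11.07 against 13.12 and 13.06 (difference -1.68, SE 0.24, adjusted p = 0.000854).

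Slc7a11, a member of the DP list and of the amino acid transporter list, had one of the widest gaps. This cystine and glutamate exchanger that feeds glutathione synthesis was 5.56, 5.21, 5.38 and 5.22 in V2 cKO and 9.76 and 9.69 in DP cKO (difference -4.38, SE 0.14, adjusted p = 7.12e-10). Slc6a19, a neutral amino acid transporter, was 5.89, 5.57, 6.39 and 6.51 against 10.61 and 9.05 (difference -3.75, SE 0.36). Both were near the floor in V2 cKO, so these sizes are not exact. F13a1, the A chain of coagulation factor XIII, was 6.83, 7.07, 6.24 and 6.01 against 10.56 and 10.59 (difference -4.04, SE 0.19, adjusted p = 3.28e-08). Spo11, known for the DNA breaks of meiosis, was 6.18, 6.28, 5.87 and 5.88 against 9.37 and 9.33 (difference -3.30, SE 0.26). In both genes the DP cKO arrays lay within 0.05 log2 units of each other, far above every V2 cKO array. Iftap was 4.81, 4.15, 4.21 and 4.10 against 10.43 and 10.05 (difference -5.92, SE 0.19, adjusted p = 7.12e-10), a gap close to that of Rag2. In RefSeq's GRCm38.p6 genes the span of Iftap overlaps that of Rag2, and whether its probes read RNA of the Rag locus was not tested.

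Within the V(D)J recombination and pre-TCR list, 5 of 12 measured genes were lower and 2 higher, the same 7 calls as in WT. The 5 include the markers Rag1 and Rag2, and without these 3 of 10 were lower and 2 higher. Ptcra, the pre-TCR α chain, was 7.11, 7.20, 6.79 and 6.72 in V2 cKO and 8.37 and 8.33 in DP cKO (difference -1.40, SE 0.13, adjusted p = 2.38e-05). Xrcc6, the Ku70 subunit of end joining, was 8.53, 8.76, 8.09 and 7.95 against 10.36 and 10.38 (difference -2.03, SE 0.23). Its partner Xrcc5 (Ku80) was called the other way (difference 0.76), but not without DP cKO replicate 3 (adjusted p = 0.438) or replicate 4 (adjusted p = 0.115), and the adjusted p was 0.0515 to 0.08 without DP WT replicate 3 or 5, V2 WT replicate 4 (V2imm) or either immV2 cKO array. Dntt, the polymerase that adds untemplated bases at junctions, was lower in V2 cKO (difference -2.55, adjusted p = 0.000455).

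Promoters of Rag1, Cd8a and Ptcra, 3 genes of the DP thymocyte list, are shown because they hold CAGCTG, an E-box that E proteins can bind. Each window runs from 250 bases before to 50 after the gene's start in RefSeq (GRCm38.p6), is printed 5′ to 3′ on the gene's strand, and has the E-box in capitals. Ptcra holds 3 such boxes and each of the others 1.
Rag1 (chr2:101649483-101649782, minus strand): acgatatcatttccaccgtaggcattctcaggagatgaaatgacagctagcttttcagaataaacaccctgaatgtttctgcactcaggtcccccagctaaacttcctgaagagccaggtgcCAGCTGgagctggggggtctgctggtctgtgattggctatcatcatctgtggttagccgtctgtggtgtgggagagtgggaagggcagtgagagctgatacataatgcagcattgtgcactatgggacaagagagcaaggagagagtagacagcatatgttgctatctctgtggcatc
Cd8a (chr6:71373177-71373476, plus strand): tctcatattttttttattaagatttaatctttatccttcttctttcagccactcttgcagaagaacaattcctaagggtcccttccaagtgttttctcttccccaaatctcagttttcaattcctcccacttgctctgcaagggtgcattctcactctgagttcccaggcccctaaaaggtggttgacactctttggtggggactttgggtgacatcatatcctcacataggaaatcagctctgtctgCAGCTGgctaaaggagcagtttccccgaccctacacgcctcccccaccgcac
Ptcra (chr17:46763663-46763962, minus strand): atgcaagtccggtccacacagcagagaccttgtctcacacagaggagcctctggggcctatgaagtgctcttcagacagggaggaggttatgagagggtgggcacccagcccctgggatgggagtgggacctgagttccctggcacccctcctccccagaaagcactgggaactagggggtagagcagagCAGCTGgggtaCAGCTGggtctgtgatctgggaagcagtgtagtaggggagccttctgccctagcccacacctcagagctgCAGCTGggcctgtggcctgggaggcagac
Shares were counted per gene, and a gene with several promoters counted if any of them held the motif (15483 tested genes, 19019 promoters). The palindrome CAGCTG stood in a promoter of 18.3% of these genes. It stood in a promoter of 88 of 302 genes called lower in V2 cKO (29.1%) and of 112 of 554 genes called higher (20.2%). These shares describe letters in a window and were not tested.

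On the γδ side, 11 of 17 measured γδ T cell genes were called higher in V2 cKO, as were 13 of the 20 measured in the IL-17 programme list, and 0 of either list was called lower. The median differences were 1.64 and 1.58. Both markers Sox13 and Etv5, which the choice of arrays used, belong to both lists. Without them 9 of 15 and 11 of 18 genes were called higher, with medians of 1.43 and 1.37. Of the other genes Blk, Maf, Zbtb16 and Cd163l1 are shared between them too, so the lists are not separate evidence. In WT 9 and 11 genes of these lists were called higher, all of them among the cKO calls. Leaving out 1 array at a time gave 8 to 12 and 10 to 14 calls, and the arrays as labelled gave 0 in both.

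Maf, a factor required for IL-17 γδ cells, was 9.54, 10.46, 9.79 and 10.72 in V2 cKO and 6.83 and 7.39 in DP cKO (difference 3.02, SE 0.29, adjusted p = 2.57e-05). Rora, a nuclear receptor of type 17 cells, was 9.01, 9.62, 8.33 and 9.43 against 6.62 and 6.68 (difference 2.44, SE 0.27). Blk, a Src family kinase of IL-17 γδ cells, was 8.74, 10.31, 9.99 and 10.94 against 6.79 and 6.87 (difference 3.17, SE 0.37, adjusted p = 0.000135). Blk varied by over 2 log2 units among the V2 cKO arrays, and its lowest array was still well above DP cKO. Il17a, the cytokine gene itself, was not called (difference 0.08, adjusted p = 0.939), with a mean of 6.52 in V2 cKO and 6.44 in DP cKO. Ahr, the aryl hydrocarbon receptor, was 8.96, 9.30, 9.44 and 9.76 against 7.12 and 8.15 (difference 1.73, SE 0.28), and its call was lost without DP cKO replicate 3 (adjusted p = 0.0687). Zbtb16, which encodes PLZF, was 7.66, 8.15, 8.37 and 8.80 against 6.96 and 6.92 (difference 1.30, SE 0.25), with the call lost without DP cKO replicate 3 (adjusted p = 0.0794) or replicate 4 (adjusted p = 0.0832).

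The widest gap of all tested genes was that of Cpa3, a carboxypeptidase best known from mast cells. It was 12.38, 12.22, 11.91 and 12.20 in V2 cKO and 4.77 and 4.63 in DP cKO (difference 7.48, SE 0.19, adjusted p = 1.74e-10). Of 12 measured mast cell and basophil markers, 2 were called, Cpa3 and Kit, and Fcer1a (mean 4.62 in V2 cKO, 4.41 in DP cKO) and Hdc (6.82 and 6.97) were not called. Kit, the stem cell factor receptor, was 8.07, 8.84, 7.92 and 7.87 against 6.71 and 7.17 (difference 1.23, SE 0.32), a call lost without DP cKO replicate 3 (adjusted p = 0.437) or replicate 4 (adjusted p = 0.107), and also without either V2imm WT array or V2 cKO replicate 3 (immV2) (adjusted p from 0.0646 to 0.0727).

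Among other genes with the largest folds on the V2 side, Atp8b4, a phospholipid-transporting ATPase, was 9.77, 10.08, 10.57 and 10.25 in V2 cKO and 5.71 and 5.61 in DP cKO (difference 4.51, SE 0.19). Samhd1, which degrades deoxynucleotides, was 9.20, 9.49, 10.44 and 11.31 against 5.76 and 6.0 (difference 4.23, SE 0.25). Igfbp4, a secreted binder of insulin-like growth factors, was 10.49, 12.25, 10.86 and 11.44 against 7.09 and 6.97 (difference 4.23, SE 0.36, adjusted p = 8.01e-06). Each of the 3 had every V2 cKO array at least 3 log2 units above DP cKO, and the rule that named them took only genes whose groups did not overlap. Clec12a, an inhibitory lectin receptor, was 9.54, 8.74, 8.88 and 8.55 against 5.01 and 4.78 (difference 4.03, SE 0.22). Its DP cKO values lay under the lower quartile of the arrays, as did those of Atp8b4.

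Cytotoxic and type 1 effector genes were higher in V2 cKO in 13 of 26 measured members (50%, against 3.5% of all genes) and lower in 0, with a median of 0.62. Nkg7, a granule membrane protein, was 10.56, 12.07, 12.42 and 12.24 in V2 cKO and 6.47 and 6.10 in DP cKO, 46.6-fold higher (log2 difference 5.54, SE 0.32, adjusted p = 2.8e-07). Gzma, granzyme A, was 10.58, 11.26, 10.72 and 10.68 against 7.92 and 7.83 (difference 2.93, SE 0.22). Cst7, a cathepsin inhibitor of cytotoxic cells, was 8.71, 9.09, 10.50 and 10.91 against 6.49 and 6.66 (difference 3.23, SE 0.26). Its 2 V2imm arrays lay below its 2 immV2 arrays, and all 4 above DP cKO. Ifng, the type 1 cytokine, was not called (difference 0.14, adjusted p = 0.809). Among NK-type receptors 5 of 18 were higher (27.8%) and 0 lower, with a list median of 0.05. Cd7 led them, at 9.83, 9.98, 11.18 and 11.47 against 6.45 and 6.28 (difference 4.25, SE 0.20, adjusted p = 3.49e-08), and Itga2, the α2 integrin of NK cells, was 7.55, 7.41, 7.73 and 7.82 against 6.62 and 6.49 (difference 1.07, SE 0.13), called in cKO and not in WT, where it differed by 0.35.

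Maturation and egress genes were higher in V2 cKO in 14 of 23 measured members and lower in 0, with a median of 1.497, although the cells were sorted as immature. Il7r, the IL-7 receptor chain that DP cells switch off, was 9.95, 9.48, 10.62 and 10.73 in V2 cKO and 6.01 and 6.10 in DP cKO (difference 4.14, SE 0.22, adjusted p = 1.08e-07). Plac8, a small cysteine-rich protein of mature lymphocytes, was 10.88, 10.74, 11.28 and 10.73 against 6.26 and 6.58 (difference 4.49, SE 0.19). Ms4a4b, a tetraspan membrane protein of T cells, was 9.31, 9.74, 11.05 and 11.20 against 6.71 and 6.71 (difference 3.61, SE 0.19). In Plac8 the V2 cKO arrays were close together, and in Ms4a4b the immV2 arrays were higher than the V2imm arrays. Of 8 measured Gimap GTPases 3 were called higher, among them Gimap4, a regulator of T cell survival, at 9.72, 9.73, 10.28 and 10.33 against 6.28 and 5.93 (difference 3.91, SE 0.18, adjusted p = 2.34e-08). Cd24a, which encodes the sorted HSA antigen, was 12.31, 11.61, 10.38 and 9.46 in V2 cKO and 10.89 and 10.93 in DP cKO, so that the V2imm arrays stood above DP cKO and the immV2 arrays below.

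Promoters of Nkg7 and Il7r are shown because both genes belong to the widest gaps on the V2 side and both windows hold TGTGGT, a core that RUNX factors can bind, in capitals. In Nkg7 it lies on the other strand and reads ACCACA. The windows have the same limits and build as above. The Rag1 window printed above, of a gene higher in DP cKO, also holds this RUNX core, left there in lower case. The core is therefore not particular to the windows of genes higher in V2 cKO.
Nkg7 (chr7:43436888-43437187, plus strand): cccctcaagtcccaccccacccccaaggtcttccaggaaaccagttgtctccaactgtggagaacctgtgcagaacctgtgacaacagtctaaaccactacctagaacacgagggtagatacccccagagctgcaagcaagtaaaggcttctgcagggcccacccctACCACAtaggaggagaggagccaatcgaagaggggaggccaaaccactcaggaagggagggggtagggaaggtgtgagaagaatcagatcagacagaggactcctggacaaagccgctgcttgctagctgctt
Il7r (chr15:9529827-9530126, minus strand): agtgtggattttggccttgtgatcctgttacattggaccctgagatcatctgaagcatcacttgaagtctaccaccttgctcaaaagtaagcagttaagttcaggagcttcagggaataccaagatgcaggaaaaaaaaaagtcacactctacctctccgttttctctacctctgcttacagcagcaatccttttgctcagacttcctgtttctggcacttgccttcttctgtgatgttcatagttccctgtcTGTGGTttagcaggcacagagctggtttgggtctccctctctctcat
TGTGGT, counted on both strands and per gene as above, stood in a promoter of 16.4% of the 15483 genes. It did so in 115 of 554 genes called higher (20.8%) and in 52 of 302 genes called lower (17.2%). The ETS sequence CAGGAAGT stood in a promoter of 3.82% of all genes, 5.05% of those called higher and 5.30% of those called lower. For AGGTCA, a half-site of ROR receptors, the shares were 16.3%, 13.9% and 16.9%. For ACAATG, a core that SOX factors can bind, they were 11.8%, 9.57% and 12.6%, and for ATCAAAG, that of TCF and LEF factors, 3.70%, 2.71% and 4.30%. Some of these motifs can overlap each other in a window, and none of the shares was tested.

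Chemokine receptors, which guide cells through the thymus, were higher in 7 of 18 measured genes and lower in 1 (44.4% called), and 10 were not called. Ccr8 was 10.58, 11.01, 8.65 and 9.11 in V2 cKO and 5.58 and 5.42 in DP cKO (difference 4.34, SE 0.33, adjusted p = 3.71e-06). Ccr4 was 10.48, 11.08, 11.45 and 11.39 against 9.13 and 9.14 (difference 1.96, SE 0.20). Ccr7, which guides cells to the medulla, was 10.18, 10.62, 11.28 and 11.17 against 9.36 and 8.24 (difference 2.01, SE 0.28). Every V2 cKO array was above both DP cKO arrays in these 3 genes. The exception was Cxcr4, the receptor that retains immature thymocytes in the cortex, lower in V2 cKO (difference -1.06, adjusted p = 0.014), a call lost without DP cKO replicate 3 (adjusted p = 0.246) or replicate 4 (adjusted p = 0.0624). Interleukin receptors were higher in 7 of 28 and lower in 2 (32.1% called), and 19 were not called. Besides Il7r, Il2rb, the β chain shared by the IL-2 and IL-15 receptors, was 8.03, 9.06, 10.13 and 9.69 against 6.17 and 6.12 (difference 3.08, SE 0.25). Il17rb, a receptor for IL-25, was 10.36, 11.51, 10.31 and 10.04 against 8.53 and 8.73 (difference 1.92, SE 0.32). The JAK, STAT and SOCS list had 2 of 20 higher and 1 lower (15% called, against 5.45% of all genes). The 1 lower was the feedback inhibitor Socs1, at 8.34, 8.76, 9.03 and 9.41 against 10.49 and 10.65 (difference -1.69, SE 0.20, adjusted p = 0.000204).

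Lineage transcription factors were divided between the groups. Of 14 measured factors of coreceptor lineage choice, 3 were higher and 2 lower, the same calls as in WT. Runx3, which silences Cd4, was 11.20, 11.38, 11.17 and 11.50 in V2 cKO and 9.11 and 9.67 in DP cKO (difference 1.93, SE 0.24, adjusted p = 0.000282). Gata3 was 12.19, 12.41, 11.62 and 11.64 against 10.32 and 10.33 (difference 1.64, SE 0.21). Other HMG box factors were higher in 4 of 25 genes, the marker Sox13 among them, and lower in 2. Tox2 was 10.05, 10.42, 10.10 and 10.09 against 7.75 and 7.74 (difference 2.42, SE 0.17, adjusted p = 1.92e-06), and Tox was 11.78, 11.54, 11.32 and 11.25 against 10.21 and 10.15 (difference 1.29, SE 0.19). Lef1 was not called (difference 0.46, adjusted p = 0.389). Of 10 E and Id proteins only Id2, an inhibitor of E proteins, was called (10%, against 5.45% of all genes). It was 10.38, 11.03, 9.53 and 9.72 against 7.12 and 6.79 (difference 3.21, SE 0.25, adjusted p = 3.97e-06). The E protein gene Tcf12 was not called (difference -0.41, adjusted p = 0.223). In the Ikaros and Bcl11 list 5 of 18 were higher and 1 lower. Ikzf2, which encodes Helios, was 10.87, 10.72, 11.31 and 11.07 against 9.71 and 9.36 (difference 1.46, SE 0.18), and Bach2, a repressor of effector fate, was 7.73, 8.71, 8.16 and 8.32 against 6.58 and 6.35 (difference 1.77, SE 0.22).

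Most of the T cell receptor machinery was not called. Of 33 genes of the CD3 complex and proximal signalling, 6 were higher and 2 lower, with a median of 0.03. Prkcq, the kinase PKCθ, was 11.76, 12.02, 12.07 and 12.31 in V2 cKO and 11.13 and 10.93 in DP cKO (difference 1.01, SE 0.17), a call lost without DP cKO replicate 4 (adjusted p = 0.0784). Themis, which tunes selection signals in αβ thymocytes, was 11.32, 11.23, 11.38 and 11.31 against 12.57 and 12.31 (difference -1.13, SE 0.19), a call lost without DP cKO replicate 3 (adjusted p = 0.0904). Early genes induced by receptor signalling were higher in 5 of 28 and lower in 0, with 24 of 28 above 0 and a median of 0.35. Nr4a3 was 7.43, 7.32, 7.79 and 7.32 against 6.28 and 6.24 (difference 1.20, SE 0.16, adjusted p = 0.000545). Egr2 and Egr3, with differences of 0.36 and 0.20, were not called.

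The inhibitory receptor genes Pdcd1 and Btla were among the brakes on signalling that were higher in V2 cKO. In the list of negative regulators 7 of 35 were higher and 2 lower, and in that of costimulatory receptors 7 of 20 were higher and 1 lower. Pdcd1, which encodes PD-1, was 9.98, 11.20, 11.28 and 10.81 in V2 cKO and 7.33 and 7.30 in DP cKO (difference 3.50, SE 0.28, adjusted p = 4.5e-06). Btla was 8.97, 8.57, 8.85 and 8.35 against 6.02 and 5.81 (difference 2.77, SE 0.21, adjusted p = 3.71e-06). Cd226, an activating receptor, was 10.11, 9.52, 10.12 and 10.41 against 7.65 and 7.53 (difference 2.45, SE 0.20). In these 3 receptor genes every V2 cKO array was at least 1 log2 unit above DP cKO. Other inhibitory receptor genes of these lists varied. With only V2imm and with only immV2 as the V2 side, Ctla4 differed by -0.40 and -0.33 and Lag3 by -0.01 and -0.10. Tigit differed by -0.11 and 0.53, Havcr2 by 0.82 and 0.06, and Cd96, called lower in the 11 arrays, by -3.05 and -0.21. On the lower side, Sla, an adaptor that promotes TCR turnover in DP cells, was 11.48, 11.65, 11.47 and 11.58 against 12.68 and 12.58 (difference -1.09, SE 0.16), and the NF-κB inhibitor Tnfaip3 was 8.05, 8.35, 8.29 and 8.50 against 9.45 and 9.34 (difference -1.10, SE 0.18). Besides Bcl6, Slamf1 was lower in the SLAM and invariant NKT list (4 of 20 higher, 2 lower), at 9.96, 9.85, 7.996 and 8.37 against 10.52 and 10.33 (difference -1.38, SE 0.22), with the immV2 arrays lower than the V2imm arrays.

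The microRNAs miR-181a and miR-181b, which raise TCR sensitivity in DP thymocytes, share the seed at bases 2 to 8, shown in capitals because it is what the mature forms have in common (RefSeq, GRCm38.p6, 5′ to 3′).
miR-181a-5p (chr1:137966468-137966490, plus strand): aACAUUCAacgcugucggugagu
miR-181b-5p (chr1:137966650-137966673, plus strand): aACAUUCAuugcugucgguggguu
Of 6 measured miR-181 genes, 2 were called, both lower in V2 cKO and both lower in WT. Mir181b-2 went another way, with a difference from DP cKO of 2.38 with only V2imm and -0.04 with only immV2. The difference between the title sets was called for 0 of the 6 genes. Mir181a-1 was 5.11, 6.01, 5.51 and 4.99 against 8.02 and 7.32 (difference -2.26, SE 0.26, adjusted p = 0.000138). Its V2 cKO values lay near or under the lower quartile of the arrays, so this size is not exact. Mir181b-1 was 8.39, 9.21, 9.02 and 8.30 against 11.38 and 10.94 (difference -2.43, SE 0.28, adjusted p = 0.000128). The array used total RNA and these probe sets read the gene loci, so the levels of the mature microRNAs were not measured.

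Survival genes differed in both directions. In the Bcl2 family and death receptor list 2 of 22 were higher and 5 lower. Bcl2 was 10.24, 10.88, 10.98 and 11.21 in V2 cKO and 8.10 and 8.34 in DP cKO (difference 2.61, SE 0.24, adjusted p = 2.13e-05). Bcl2l1, which encodes the survival factor Bcl-xL of DP cells, was 7.38, 7.77, 7.21 and 7.09 against 9.56 and 9.71 (difference -2.28, SE 0.21, adjusted p = 2.13e-05). Fas, the death receptor, was 7.46, 7.10, 6.90 and 7.31 against 9.57 and 9.51 (difference -2.35, SE 0.18, adjusted p = 3.05e-06). The V2 cKO arrays were thus all above DP cKO for Bcl2 and all below for Bcl2l1 and Fas.

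D-type cyclins differed in both directions too. Of 40 cell cycle and replication genes 2 were higher and 4 lower, with a median of -0.21. This was 15% called, against 5.45% of all genes (3.5% higher and 1.94% lower), and most of the list was not called. Ccnd2 was 9.88, 11.18, 11.39 and 11.68 in V2 cKO and 7.63 and 7.87 in DP cKO (difference 3.28, SE 0.28, adjusted p = 9.4e-06). Ccnd3, which drives the burst before the DP stage, was 8.45, 10.38, 10.26 and 10.05 against 11.86 and 12.01 (difference -2.15, SE 0.39, adjusted p = 0.00428), a call lost without DP cKO replicate 4 (adjusted p = 0.0612). E2f2, an E2F factor, was 8.26, 8.73, 9.16 and 9.07 against 10.40 and 10.66 (difference -1.72, SE 0.21). All 4 V2 cKO arrays were on the same side of DP cKO in each of the 3 genes.

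Among metabolic lists, amino acid transporters were higher in 2 of 18 and lower in 5 (38.9% called, against 5.45% of all genes), with Slc7a8 on the higher side, at 8.33, 9.36, 7.003 and 7.21 in V2 cKO and 5.98 and 5.83 in DP cKO (difference 2.07, SE 0.31). Glycolysis genes were higher in 2 of 17 and lower in 1 (17.6%), the monocarboxylate transporter Slc16a1, at 9.12, 9.82, 9.28 and 9.10 against 10.75 and 11.09 (difference -1.59, SE 0.21, adjusted p = 0.000519). Sterol and fatty acid synthesis had 1 of 23 higher and 0 lower (4.35%). Of 26 ribosome biogenesis genes 24 were above 0, with 3 called higher (15.4% called in all), while Wdr12, of the PeBoW complex, was called lower, at 8.41, 8.70, 8.90 and 8.66 against 10.46 and 10.15 (difference -1.64, SE 0.22).

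Adhesion and developmental signalling genes followed. Integrins were higher in 4 of 17 and lower in 0, led by Itgb3, at 9.59, 10.28, 10.64 and 11.23 in V2 cKO and 7.27 and 7.16 in DP cKO (difference 3.22, SE 0.22, adjusted p = 1.46e-06). TGF-β and SMAD genes were higher in 6 of 21 and lower in 0. Smad3 was 10.39, 10.93, 10.27 and 10.66 against 8.88 and 9.24 (difference 1.51, SE 0.21), and the inhibitory Smad7 was 7.82, 8.84, 9.18 and 9.38 against 7.28 and 7.17 (difference 1.59, SE 0.23). Notch pathway genes were higher in 3 of 21 and lower in 2 (23.8% called, against 5.45% of all genes). Lfng, a glycosyltransferase that modifies Notch, was 8.21, 9.01, 10.18 and 10.52 against 7.33 and 7.41 (difference 2.11, SE 0.28). Nuclear receptors were higher in 6 of 20 and lower in 1 (35% called). The NF-κB and lymphotoxin list was higher in 0 of 20 and lower in 2 (10% called).

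**Figure D2:**
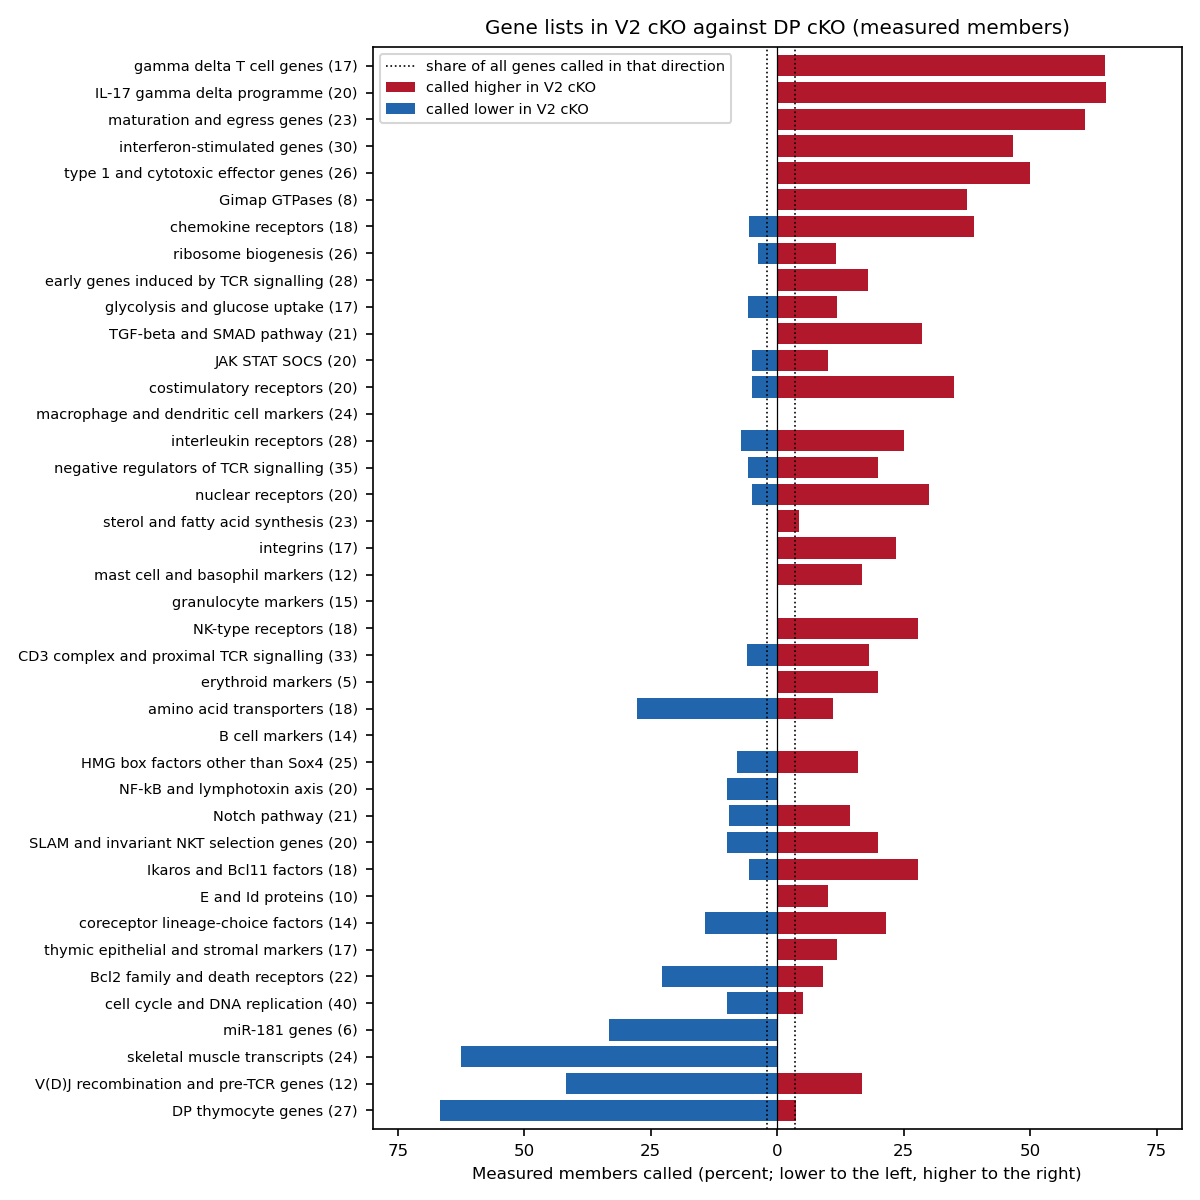
Share of measured members of each of the 40 gene lists (y axis, number measured in brackets, ordered by median difference) called higher (right) or lower (left) in V2 cKO, in percent. Dotted lines mark the shares of all 19752 genes, 3.5% higher and 1.94% lower. DP thymocyte genes (18 of 27 lower) lie at the bottom and γδ genes (11 of 17 higher) at the top, markers included.

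The 2 title sets of V2 arrays differed from each other. Over all kept V2 arrays, 494 genes (2.5%) had a called difference between V2imm and immV2, 217 higher in V2imm (1.1%) and 277 lower (1.4%), and 186 of the 1076 lineage calls were among them. With only the V2imm arrays as the V2 side 886 genes were called against DP cKO (4.49%), with only the immV2 arrays 800 (4.05%), and 446 in both with the same direction (2.26%), 263 higher (1.33%) and 183 lower (0.926%). Of the 1076 calls, 1065 had the same sign on both sides. Within the cKO arrays the sets also differed in Xist and the Y chromosome gene Eif2s3y. The V2imm cKO arrays had Xist at 11.87 and 11.82 and Eif2s3y at 8.91 and 8.61, the marks of both sexes, while the immV2 cKO arrays had Xist at 5.36 and 6.08 and Eif2s3y at 9.60 and 9.29. In WT the split was not the same, since V2imm replicate 5 had Xist at 11.96 and Eif2s3y at 8.77, while V2imm replicate 4 had 5.55 and 9.70, near the 5.67 and 9.30 of immV2 replicate 3. DP cKO replicates 3 and 4 had Xist at 5.52 and 5.61. DP WT replicate 3 had Xist at 5.59 and Eif2s3y at 9.60, while DP WT replicate 5 had 12.42 and 4.56. The labels do not say whether the title sets mark a batch, and the part of sex or batch in the split was not tested.

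The 7 genes called with all 13 arrays as labelled all followed this split, and were picked out for that after their values were seen. Klk1b22, a kallikrein, was 10.39 and 10.87 in the V2imm cKO arrays, 5.45 and 5.23 in the immV2 cKO arrays and 5.21 and 5.02 in DP cKO. BC018473 was 11.13 and 11.80 in V2imm, 6.145 and 6.005 in immV2, and 6.80 and 6.71 in DP cKO. Gdpd3, a lysophospholipase D, was 9.99 and 11.32 in V2imm, 6.22 and 6.57 in immV2, and 6.22 and 6.37 in DP cKO. In each of these the immV2 arrays lay at or near the DP level, and the V2imm arrays far above it. Cd96, an inhibitory receptor, ran the other way, at 8.55 and 8.97 in V2imm, 11.70 and 11.50 in immV2, and 11.97 and 11.65 in DP cKO. Ifngr1, the interferon-γ receptor chain, was 9.70 and 10.12 in V2imm, 11.38 and 11.73 in immV2, and 12.20 and 12.29 in DP cKO. Dzip1 and Zfp971 differed from DP cKO by -3.47 and -2.82 in V2imm and by -0.87 and -0.59 in immV2. The same genes were split in WT, where Klk1b22 was 11.19 and 10.92 in V2imm, 4.93 in immV2, and 5.14 and 5.04 in DP.

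Some lineage genes had gaps of different size in the sets. S1pr1, the receptor that drives exit from the thymus, was 8.50 and 9.05 in V2imm, 10.86 and 11.54 in immV2, and 6.22 and 6.37 in DP cKO (difference 3.69, SE 0.31). Itgae, the αE integrin CD103, was 7.32 and 7.75 in V2imm, 9.96 and 10.63 in immV2, and 6.32 and 6.49 in DP cKO (difference 2.51, SE 0.29). Tgfb3 was 6.82 and 7.31, then 10.18 and 10.41, against 6.44 and 6.02. In the maturation and egress list 10 of 23 genes had a called difference between the sets. Interferon-stimulated genes were higher in V2 cKO in 14 of 30 measured members and lower in 0, with a median of 0.86, and 14 of the 30 had a called difference between the sets. With only V2imm as the V2 side 6 of these genes were called, and with only immV2 20. Ifit1 was 7.90 and 7.69 in V2imm, 9.61 and 8.89 in immV2, and 6.74 and 5.95 in DP cKO (difference 2.18, SE 0.24, adjusted p = 0.000106). Usp18, which restrains the response, showed no such split, at 9.33 and 10.26, then 9.92 and 9.43, against 7.68 and 7.05 (difference 2.37, SE 0.27).

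**Figure D3:**
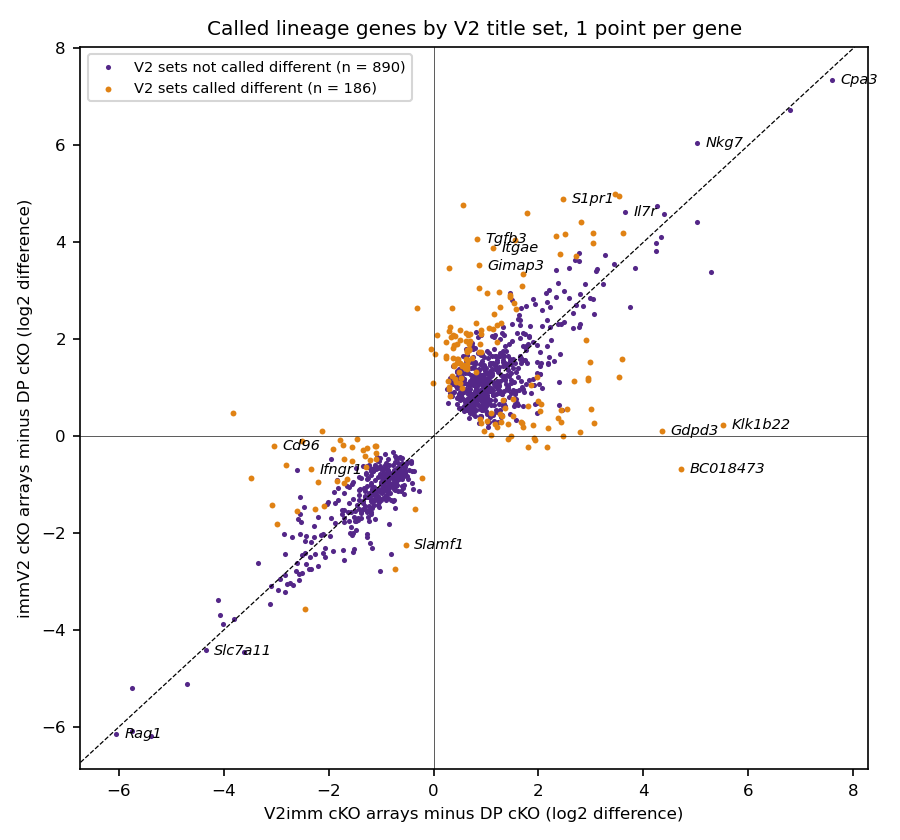
Difference from DP cKO (log2) of the 1076 called genes, with only the V2imm cKO arrays (x axis) and with only the immV2 cKO arrays (y axis) as the V2 side, 1 point per gene. Orange marks the 186 genes whose title sets were called different. Genes such as Klk1b22 lie far from the dashed line of equal difference, and Cpa3 and Rag1 lie on or near it.

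The wild type comparison sets other arrays against each other, but takes its spread and title-set term from all 11. It called 962 genes (4.87%), 633 higher in V2 WT (3.2%) and 329 lower (1.67%). With all 13 arrays as labelled it called 11 (0.0557%), 5 higher (0.0253%) and 6 lower (0.0304%). Both comparisons called 667 genes, all in the same direction, 444 higher and 223 lower. They make up 62.0% of the cKO calls and 69.3% of the WT calls. The WT count rests on leaving out V2 WT replicate 5 (immV2). It was 477 without DP WT replicate 3, 606 when V2 WT replicate 4 (V2imm) was dropped and 639 without replicate 3 of the immV2 set, and it rose to 1581 or 1478 when the V2imm cKO array numbered 4 or 5 was left out. Over the 962 WT calls the median size of the difference was 1.17 in WT and 1.02 in cKO. Of 295 WT calls not called in cKO, 287 had the same sign in cKO, and of 409 cKO calls not called in WT, 399 had the same sign in WT. The differences of both comparisons correlated with a Pearson r of 0.834 across the 19752 genes, which are not independent and were fitted with 1 covariate shared by both.

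**Figure D4:**
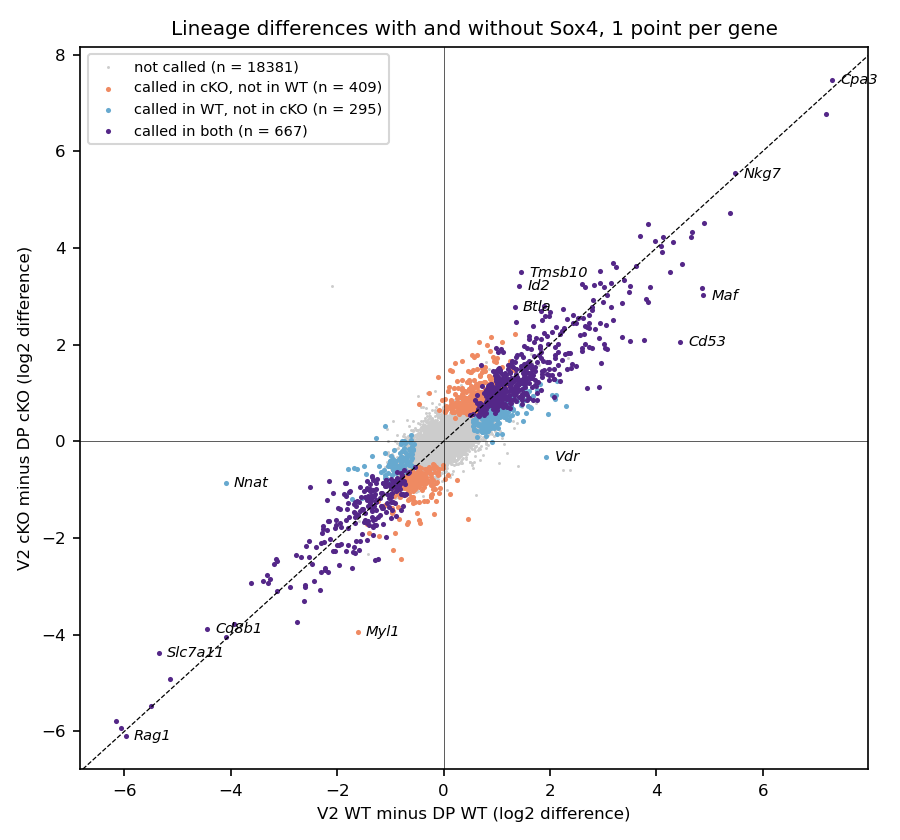
Difference between V2 and DP (log2) in the WT arrays (x axis) and in the cKO arrays (y axis), 1 point for each of 19752 genes, with the dashed line of equal difference. The 667 genes called in both lie along the line, from Rag1 to Cpa3, and Nnat, Vdr, Cd53 and Myl1 lie off it.

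Whether a lineage gap itself differed between cKO and WT was tested by the interaction, which draws on all 4 groups. It called 0 genes by limma, with 372 at an unadjusted p under 0.05 (1.88% of all tested) and a smallest adjusted p of 0.146. The genes with the smallest p are therefore described and not called. Leaving out 1 array at a time called up to 4 genes, among them Cd53 without V2 cKO replicate 4 (V2imm) (adjusted p = 0.0129), Ero1b and Pip5k1b without DP cKO replicate 4 (adjusted p = 0.00809 and 0.0142), Vdr without V2 cKO replicate 4 (immV2) (adjusted p = 0.0486), and Myl1 with 3 Y chromosome genes without DP WT replicate 3. DP WT replicate 5, the only DP WT array in the fit without replicate 3, had Xist at 12.42 and Eif2s3y at 4.56. DP cKO replicates 3 and 4 had Xist at 5.52 and 5.61 and Eif2s3y at 10.003 and 9.372. The part of sex in these calls was not tested. Quantile normalization called Cd53 (adjusted p = 0.0405). Cd53, a tetraspanin of leukocytes, was 11.56, 12.26, 12.77 and 12.80 in V2 cKO and 10.54 and 10.04 in DP cKO, and 12.21, 12.21 and 12.62 in V2 WT and 7.95 and 8.08 in DP WT. Its gap was 2.06 in cKO and 4.45 in WT (interaction -2.39, SE 0.33, adjusted p = 0.146), and the groups that stood apart were those of DP cells. Tmsb10, thymosin β10, an actin-binding peptide, had a gap of 3.49 in cKO and 1.45 in WT (interaction 2.04, SE 0.34, adjusted p = 0.218), with DP cKO at 8.16 and 7.96 and DP WT at 9.93 and 9.32. Ero1b, an oxidase of the endoplasmic reticulum, was 9.27 and 8.36 in DP cKO and 6.86 and 6.65 in DP WT, while the V2 cKO arrays lay between 7.16 and 7.28 (interaction -2.07, SE 0.31, adjusted p = 0.162). The interaction was 1.33 for Smoc1, a matrix protein, and 1.22 for Car2, a carbonic anhydrase. It was -1.63 for the nucleoside transporter Slc28a2b and -1.08 for Car3, whose DP cKO arrays stood above those of DP WT in both genes.

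Nnat, neuronatin, a small membrane protein, had the largest WT difference among the WT calls that were not called in cKO. It was 10.91 and 11.52 in DP WT and 8.03 and 6.64 in DP cKO, while V2 cKO had 6.66, 6.09, 6.65 and 6.50. The WT gap of -4.10 (SE 0.39, adjusted p = 2.4e-05) compared with -0.86 (SE 0.36, adjusted p = 0.289) in cKO, and the interaction was 3.24 (SE 0.53, adjusted p = 0.218). Vdr, the vitamin D receptor, was 8.54, 8.13 and 8.39 in V2 WT and 6.42 and 6.65 in DP WT, and 6.622, 5.999, 6.783 and 8.005 in V2 cKO and 7.03 and 7.34 in DP cKO. Its gap of 1.93 in WT stood beside -0.33 in cKO (interaction -2.26, SE 0.47, adjusted p = 0.577). The uncharacterised 1700048O20Rik had a gap of 2.30 in WT and 0.73 in cKO (interaction -1.57, adjusted p = 0.4). Further WT calls without a cKO call were Cdk6, a G1 kinase (2.10 in WT, 0.88 in cKO), Slc2a3, a glucose transporter (2.04 and 0.96), Galm, a sugar mutarotase (1.96 and 0.57), Gm2a, a lysosomal lipid transfer protein (2.12 and 0.95), and Gpr25, an orphan receptor (2.13 and 1.25). None of the interactions of these genes passed the threshold in the 11 arrays.

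Among genes called in both comparisons, the size of the gap varied for some lineage regulators, again without a called interaction. Maf differed by 3.02 in cKO and 4.87 in WT (interaction -1.86, SE 0.42, adjusted p = 0.723), and V2 WT, at 11.10, 11.10 and 11.45, lay above every V2 cKO array. Id2 differed by 3.21 in cKO and 1.42 in WT (interaction 1.79, SE 0.37, adjusted p = 0.577). Btla differed by 2.77 in cKO and 1.34 in WT (interaction 1.44, SE 0.31, adjusted p = 0.584). The V2 cKO arrays of Btla, from 8.35 to 8.97, lay above those of V2 WT, at 7.28, 6.88 and 7.48. On simulated data this interaction found 33% of gaps set to differ by 1 log2 unit and 97% of gaps set to differ by 2. The simulation had independent noise, no array set apart from its group and 200 changed genes among 19752. Gaps that differ by 1 log2 unit could therefore often be missed. The share for 2 log2 units need not hold in these arrays. The interactions of Nnat, Cd53, Vdr, Ero1b and Tmsb10 were above 2 in size and were not called in the 11 arrays.

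**Figure D5:**
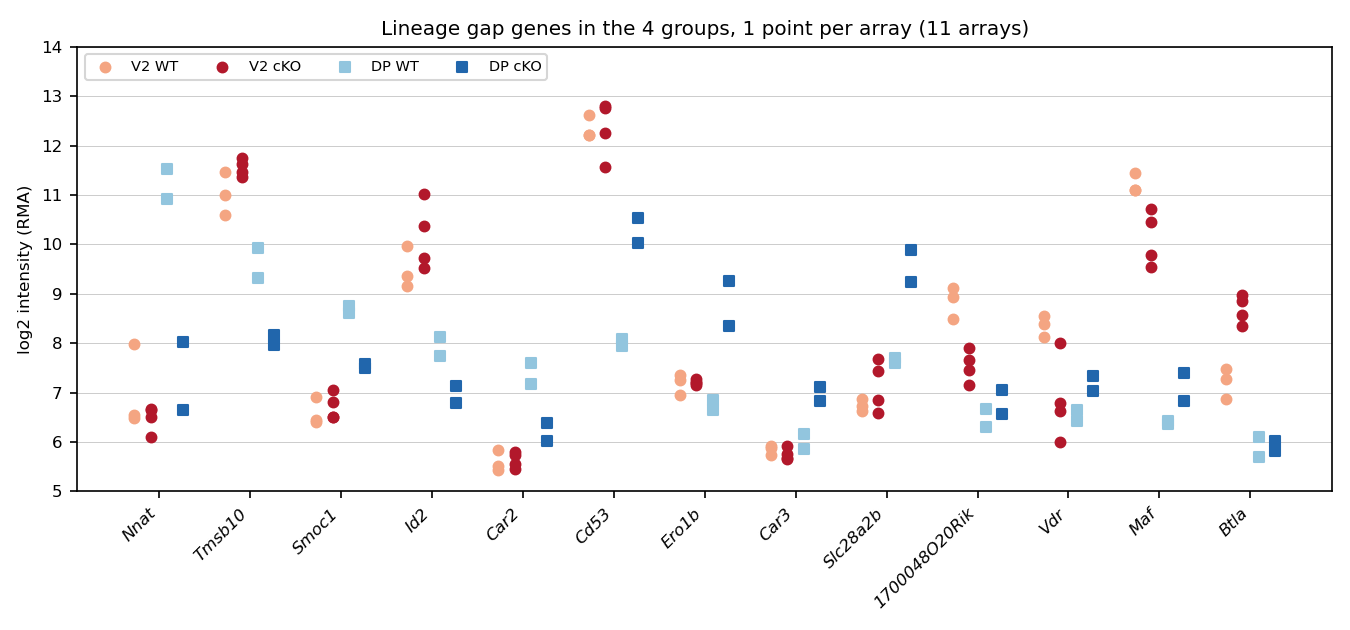
Log2 RMA intensity (y axis) of 13 genes (x axis) in the 11 arrays kept, 1 point per array, by group. For Nnat and Cd53 the DP WT and DP cKO arrays lie apart, and for Vdr the 4 V2 cKO arrays lie below every V2 WT array.

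Skeletal muscle transcripts were the 1 marker list of other cells with many calls. Of 24 measured, 15 were called lower in V2 cKO and 0 higher, against 0 called in WT, and the difference between the comparisons was called for 0 of them in the 11 arrays, with Myl1 called without DP WT replicate 3 (interaction -3.44, adjusted p = 0.0259). Myl1, a fast muscle myosin light chain, was 6.52, 5.76, 6.27 and 6.29 in V2 cKO and 10.57 and 9.73 in DP cKO (difference -3.94, SE 0.45, adjusted p = 0.000122), and 9.01 and 6.79 in DP WT. Atp2a1, the calcium pump of fast muscle, was 7.18, 6.76, 7.17 and 7.05 against 8.997 and 8.44 (difference -1.68, SE 0.25), and Car3, a carbonic anhydrase of muscle and fat, was 5.67, 5.65, 5.91 and 5.76 against 7.11 and 6.84 (difference -1.23, SE 0.13). The list's summed linear intensity ran from 2306 to 3000 in V2 cKO and from 4633 to 7200 in DP cKO. Leaving out 1 array at a time gave 3 to 18 calls in this list. In bulk samples more cells of a type and more RNA per cell cannot be told apart, and the part of muscle RNA in other genes higher in DP cKO was not tested.

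Of the other cell types the sorts could hold, 24 macrophage and dendritic cell, 14 B cell and 15 granulocyte markers had 0 called in either direction. Without V2 cKO replicate 4 (V2imm) 6 macrophage and dendritic markers and 1 granulocyte marker were called higher, and with only V2imm as the V2 side 3 macrophage and dendritic markers were called higher and 1 B cell marker lower. In the macrophage and dendritic list 6 of 24 genes had a called difference between the title sets. The summed intensity of the macrophage and dendritic list ran from 1705 to 7195 in V2 cKO and from 1802 to 1978 in DP cKO, so 1 or more V2 arrays carried more of it. Cd74, the MHC class II invariant chain, was 8.19, 10.98, 7.77 and 6.48 in V2 cKO and 6.80 and 6.46 in DP cKO, highest in V2imm replicate 5. B cell markers summed to 1428 to 2226 and 2017 to 2167, and granulocyte markers to 955 to 1463 and 971 to 1013. Erythroid markers had 1 of 5 measured called, and thymic epithelial and stromal markers 2 of 17, among them Pdgfrb, a growth factor receptor, at 8.03, 9.50, 9.24 and 9.13 against 7.08 and 7.03 (difference 1.92, SE 0.33, adjusted p = 0.003). The part of these markers in the lineage differences was not tested.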

How the data were processed

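RNA of sorted mouse thymocytes was hybridised with 1 Affymetrix mouse gene ST array per sample, and 13 arrays were deposited. Per the submitters' processing notes, the authors ran RMA (Affymetrix Power Tools), and what they deposited is 1 linear intensity for each probe set and array. RMA normalises arrays to 1 distribution, so a shift of all genes cannot be seen. The log2 of each deposited intensity was taken. Of 24922 probe sets, 21425 had 1 gene symbol, 1399 several and 2098 were not listed. The brightest probe set stood for each of 921 genes with more than 1, leaving 19752 genes. Groups came from the titles. limma 3.58.1 in R 4.3.3 (lmFit, eBayes with trend) fitted 4 group means and a covariate for the V2 title set to 11 arrays, so that the small groups share 1 spread, with two-sided tests and Benjamini-Hochberg adjustment over all genes at 0.05. The fit was tested on simulated data (200 of 19752 genes changed), where V2 cKO against DP cKO recovered 90% of changes of 1 log2 unit and 100% of those of 2, with 14 false calls. The simulated noise was independent between arrays, which these data need not follow.

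The arrays compared, the 40 gene lists (812 of 878 entries measured) and the tests were chosen with earlier results of these data known. The rule for named genes took Sox4, the 6 markers, the called, non-overlapping genes with the largest folds (12 per direction at most), the smallest p in each list (4 genes at most), the interactions with the smallest p and 8 WT calls not called in cKO, leaving out sex-linked and receptor segment genes. Named outside it, for their role or after their values were seen, were St6gal1, Dntt, Xrcc5, Cxcr4, Il17a, Ifng, Lef1, Tcf12, Egr2, Egr3, Fcer1a, Hdc, Cd24a, Cd74, Xist, Eif2s3y, Pip5k1b, Klk1b22, BC018473, Gdpd3, Dzip1 and Zfp971. Ctla4, Lag3, Tigit and Havcr2 were also named outside it, after their values were seen. Promoter and microRNA sequences are RefSeq's (GRCm38.p6), and no source used here names the build of the array annotation. Replicate numbers were not used to pair arrays in the main fit. Deviations of same-numbered arrays from their group means correlated from -0.36 to 0.52. The lowest value was between a V2imm and an immV2 array and the highest within immV2, so the range includes the title-set split. Arrays with different numbers were not compared, so these values cannot tell whether the numbers mark a pairing. Plots used Python 3.11.15 (matplotlib 3.10.9).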

Additional observations from a re-analysis of the deposited data

Results flagged for a closer look

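Among 154 genes checked for a V2 cKO array far from the other 3, 7 had one (its gap to the nearest array, divided by the range, was above Dixon's 95% critical value), and chance alone would give about 1 in 20. In V2imm replicate 4, Ccnd3 was low at 8.45, and Iftap and Myh1 were high at 4.81 and 5.93. In V2imm replicate 5, Cd8b1 was low at 8.84, and Sox4 and Tox2 were high at 9.60 and 10.42. In immV2 replicate 4, Il18r1 was high at 7.20. The high Sox4 of V2imm replicate 5 lay above both DP cKO arrays, at 8.74 and 8.68.

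The left-out array labelled DP cKO replicate 5 had Sox13 at 11.49 and Etv5 at 12.01, where the other DP cKO arrays reached 8.18 and 6.57. Its Xist was 12.52 and its Eif2s3y 4.62, while DP cKO replicates 3 and 4 had Eif2s3y at 10.003 and 9.372. The left-out array labelled V2 WT replicate 5 (immV2) had Cd4 at 12.65 and Rag1 at 13.02, where the other V2 arrays labelled WT reached 6.97 and 7.15. Neither array was moved to another group, and the source of these profiles was not tested.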

How the results depend on the processing

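The count of V2 cKO against DP cKO calls, 1076, was 7 with all 13 arrays as labelled, 272 without only DP cKO replicate 5, 33 with that array and without V2 WT replicate 5 (immV2) (an alternative chosen after seeing the data), 579 in the fit of the cKO arrays alone and 637 without the title-set covariate. All 7, 272, 33 and 637 are among the 1076, and 572 of the 579. Leaving out 1 array gave 480 to 1632 (1031 without DP WT replicate 3). It stayed within 1.5 times under the other normalizations, filters, moderation settings and title sets run, from 800 to 1236. The WT count, 962, became 11, 29, 141 and 596 under the same array choices and without the covariate, 467 with only immV2, and 477 to 1581 without 1 array (606 and 639 without V2 WT replicate 4, V2imm, or 3, immV2, 1478 without V2 cKO replicate 5, V2imm, and 837 without DP cKO replicate 3). The interaction count, 0, was 1 with quantile normalization and 0 to 4 without 1 array. It was not run on the arrays of the groups compared alone, which are all of them. A replicate block gave 974, 959 and 0, though whether the numbers mark a pairing is not known. The single genes followed under these alternatives do not include Ctla4, Lag3, Tigit, Havcr2 and Mir181b-2. The cKO difference changed sign, never with a call in the turned direction, for 1700048O20Rik (-0.056) and Galm (-0.016) with the arrays as labelled or with DP cKO replicate 5 kept, for Cd24a (-0.33 in both of these, -0.99 with only immV2, and -0.25 to -0.029 without 1 array), Il17a (-0.13 with only immV2, -0.064 without 1 array), BC018473 (-0.68) and Vdr (0.21) with only immV2, and Sox4 (0.13) with only V2imm. Of these genes only BC018473 was called in the 11 arrays. The cause of these changes was not tested. With 2 DP arrays per genotype, the spread of DP cells is known from few arrays, and probes near background bound, rather than measure, the lower side of a fold.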
